A study of Mus musculus with 24 samples.

Results

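The comparison asked whether interleukin 4 (IL4) changes open chromatin to the same degree in macrophages without the coactivator GRIP1 as in macrophages with it. It is the difference of 2 differences, the IL4 effect in GRIP1 knockout (KO) cells minus the IL4 effect in wild-type (WT) cells, and is called the interaction here. It rests on 16 of the 24 ATAC-seq libraries of the study, in 4 groups of 4: KO with IL4, KO with vehicle, WT with IL4 and WT with vehicle. The other 8 libraries received dexamethasone. In ATAC-seq a transposase cuts and tags accessible DNA, so that the read count of a peak measures how open it is. KO mice are labelled LysM-Cre+/+; GRIP1fl/fl and WT mice LysM-Cre+/+; GRIP1wt/wt, both on C57BL/6, so both genotypes carried the recombinase. LysM-Cre is active in myeloid cells, and the share of cells in which the floxed gene was recombined is not given in the labels. Bone marrow of male mice 8 to 10 weeks old was grown into macrophages, and IL4 was given at 10 ng/ml for 24 hours. The titles give 24 hours for vehicle too, while the treatment label of those libraries says 25. The labels do not tell if replicates were separate animals or cultures, and p-values therefore cover only the spread between libraries, which may be technical.

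GRIP1, encoded by Ncoa2, is a p160 coactivator: it does not bind DNA itself but is brought to it by nuclear receptors and other transcription factors, where it gathers histone acetyltransferases and methyltransferases. IL4 binds a receptor of the Il4ra and Il2rg chains, whose Janus kinases activate the transcription factor STAT6, and in macrophages this opens enhancers of the genes of alternative activation, such as Arg1, Chil3 and Retnla. Klf4 acts beside STAT6 in this program, and GRIP1 is known as a coactivator of KLF4 in mouse macrophages.

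Of 144411 peaks in the count table, 125025 had enough counts to be tested, and summing peaks by gene gave 16604 tested genes. The libraries held 7552327 to 16625875 counts in peaks, with a median of 34 counts for a tested peak in 1 library. Of the macrophage marker genes, 12 of 12 had a peak at the transcription start site (TSS). Their summed level was 1205 to 1249 CPM (counts scaled to library size) in KO IL4 libraries, 1295 to 1364 in KO vehicle, 1239 to 1260 in WT IL4 and 1305 to 1406 in WT vehicle. Markers of other cells were partly open too. A TSS peak was present at 5 of 8 neutrophil, 3 of 7 dendritic cell, 1 of 9 lymphocyte, 3 of 6 mast cell, 2 of 6 erythroid and megakaryocyte and 1 of 6 fibroblast markers. Those without one included Mpo, Elane and Ly6g of neutrophils, Cd3e and Pax5 of lymphocytes, and Col1a1 and Dcn of fibroblasts, whereas S100a8, S100a9, Cxcr2, Ltf and Camp of neutrophils had one. Of the peaks of these lists, 0 were called for the interaction, beside 0.004% of all tested peaks. The Ncoa2 TSS peak read 81.4, 77.5, 74.1 and 82.6 CPM in KO IL4 and 84.1, 90.8, 93.6 and 89.2 CPM in KO vehicle libraries, against 77, 77.4, 74.9 and 73 CPM in WT IL4 and 89.1, 87.9, 90.7 and 85.3 CPM in WT vehicle. Accessibility outside the deleted part does not check the knockout. Of the 21 tested Ncoa2 peaks, 0 were called for the interaction, as at nearly all tested peaks. A peak 49.7 kb from the Ncoa2 TSS was higher in KO, with means of 5.52 CPM with IL4 and 7.99 with vehicle in KO against 0.864 and 1.06 in WT. Another, 116.0 kb away, was lower in KO, at 2.97 and 3.16 CPM against 7.31 and 7.06 CPM in WT.

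IL4 opened the same well-known promoters in both genotypes, at peaks picked by the smallest p for the mean IL4 effect of their gene. That pick favours a separation of IL4 from vehicle, which is therefore no independent support. The following 4 mouse promoters are printed because the IL4-responsive peak of the gene lies over them, on all 250 bases of Chil3, Clec7a and Rnase2a and on 242 of those of Retnla. They are those with an entry in the promoter table among 8 target genes looked up, chosen after the values were seen; Arg1, Slc7a2, Ccl24 and Clec10a are named only. Chil3 encodes the secreted chitinase-like protein Ym1, Retnla the secreted protein RELM-alpha, Clec7a the beta-glucan receptor Dectin-1 and Rnase2a a secreted ribonuclease. Each is the 250 bases before the start site from RefSeq on GRCm38.p6, read along the strand of the gene, with capitals marking TTC and GAA with 4 bases of any kind between them, the spacing STAT6 prefers, or with 3 bases between them, the spacing of other STAT proteins. Both motifs read the same on both strands.
Chil3, chr3:106167565-106167814, minus strand: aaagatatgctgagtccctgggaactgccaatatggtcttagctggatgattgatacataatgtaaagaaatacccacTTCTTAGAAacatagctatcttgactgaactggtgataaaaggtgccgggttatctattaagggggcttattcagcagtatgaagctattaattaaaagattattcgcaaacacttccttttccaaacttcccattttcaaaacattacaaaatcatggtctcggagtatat
Retnla, chr16:48842359-48842608, plus strand: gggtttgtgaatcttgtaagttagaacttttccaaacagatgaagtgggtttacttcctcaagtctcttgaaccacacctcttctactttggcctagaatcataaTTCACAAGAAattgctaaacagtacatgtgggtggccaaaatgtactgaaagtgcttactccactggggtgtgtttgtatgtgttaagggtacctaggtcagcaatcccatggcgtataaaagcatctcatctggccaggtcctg
Clec7a, chr6:129472780-129473029, minus strand: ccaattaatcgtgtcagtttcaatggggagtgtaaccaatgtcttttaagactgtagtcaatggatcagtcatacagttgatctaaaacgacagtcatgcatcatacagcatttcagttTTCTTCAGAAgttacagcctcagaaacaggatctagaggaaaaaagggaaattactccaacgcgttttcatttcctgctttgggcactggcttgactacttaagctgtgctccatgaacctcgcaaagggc
Rnase2a, chr14:51256113-51256362, minus strand: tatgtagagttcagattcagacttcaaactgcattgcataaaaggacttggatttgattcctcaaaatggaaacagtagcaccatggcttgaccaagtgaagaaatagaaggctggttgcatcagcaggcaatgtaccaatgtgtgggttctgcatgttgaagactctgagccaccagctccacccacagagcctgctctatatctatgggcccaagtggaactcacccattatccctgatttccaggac
Retnla and Clec7a hold the 4-base spacing once each, Chil3 holds the 3-base spacing once, and Rnase2a holds neither in this window. Over all 32851 promoters of the table, 5.9% hold the first and 7.0% the second, so a match describes the sequence and is no evidence of binding.

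At the Chil3 promoter the 4 KO IL4 libraries read 3.28, 3.54, 6.10 and 4.90 CPM and KO vehicle 1.79, 1.45, 1.86 and 1.21 CPM. WT IL4 libraries read 3.37, 4.45, 3.29 and 5.62 CPM and WT vehicle 1.65, 1.49, 0.770 and 1.57 CPM. In each genotype every IL4 library lay above every vehicle library, and the IL4 libraries of the genotypes overlapped. The interaction was -0.05 ± 0.34 (log2, ± SE), with a 95% interval of -0.73 to 0.62. At the Retnla promoter the IL4 effect was 2.24 in KO and 1.83 in WT (log2), and the interval of the interaction, -0.80 to 1.64, was wide at a mean of 11.8 counts per library. At Clec7a the effects were 1.03 in KO and 0.90 in WT, with an interaction of 0.13 ± 0.16. At Rnase2a the KO IL4 libraries read 5.56, 4.15, 4.82 and 5.7 CPM and KO vehicle 1.66, 1.89, 2.13 and 1.96 CPM, against 5.9, 4.21, 6.59 and 4.86 CPM in WT IL4 and 2.36, 2.64, 2.2 and 2.1 CPM in WT vehicle. IL4 and vehicle were separate in both genotypes, and the interaction was 0.21 ± 0.28, between -0.34 and 0.76. None of the 4 interactions was called (adjusted p = 0.999 for each, edgeR's quasi-likelihood test with Benjamini-Hochberg adjustment).

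Across the genome the IL4 effect was broad in both genotypes, and its difference between them was called at almost no peak. In KO cells IL4 changed 40698 peaks (32.6% of those tested), 22752 up (18.2%) and 17946 down (14.4%), and in WT cells 47013 (37.6%), 24785 up (19.8%) and 22228 down (17.8%). Of these, 32835 were called in both genotypes, which is 80.68% of the KO calls and 69.84% of the WT calls, and 32832 of them had the same direction. At the other 3 the effects had opposite directions. The interaction was called at 5 peaks (0.004% of those tested), 2 higher (0.0016%) and 3 lower (0.0024%) in KO. Unadjusted p-values below 0.05 were found at 5480 peaks, 4.383% of all. A further 7863 peaks were called in KO only, of which 2 had a called interaction, and 14178 in WT only, of which 2 did as well, so a call in 1 genotype did not by itself show a difference. The authors' deposited table, with 71942 peaks, called 0 higher and 2 lower, those of Ldlrad4 and 1700020M21Rik. The called peak near Smad6 has no value there, so it could not be called. The Mcm3 peak had 1.53 (log2) there, at an adjusted p of 0.0548 in the authors' own test. DESeq2 called 1 higher and 0 lower, with 2519 peaks at an unadjusted p below 0.05, and so did edgeR after all libraries were thinned to the smallest total.

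**Figure D1:**
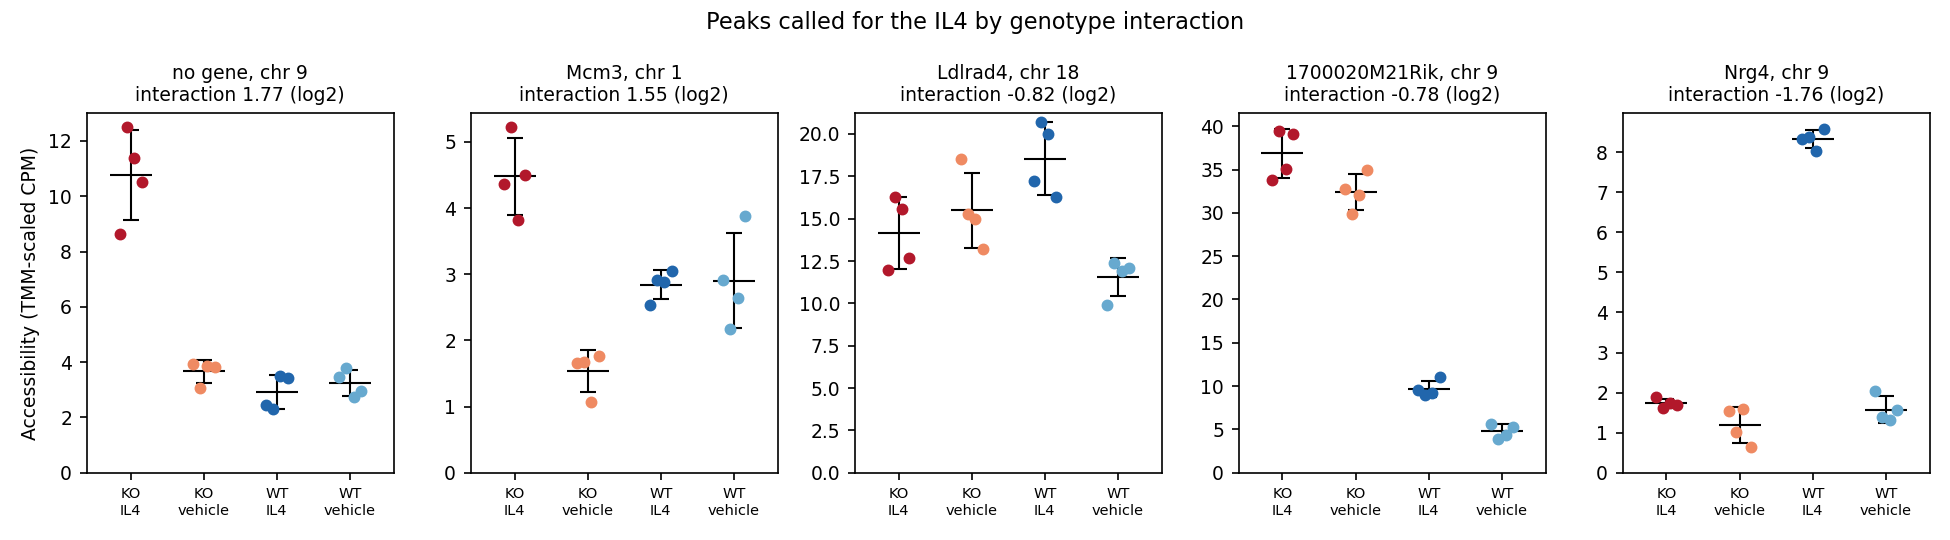
Accessibility (TMM-scaled CPM, linear axis from 0) of the 5 peaks called for the interaction, each dot 1 library, with the mean and SD of 4 libraries. KO IL4 libraries stand above all others at the peak near Smad6 and, but for 1 WT vehicle library at 3.88, at the Mcm3 peak; WT IL4 libraries stand above all others at the Nrg4 peak.

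The clearest difference lay at chr9:63927777-63928824 (mm10), which has no gene within the limits used; the nearest protein-coding gene is Smad6, an inhibitor of BMP signalling, 24.8 kb away. KO IL4 libraries read 8.64, 12.5, 11.4 and 10.5 CPM and KO vehicle libraries 3.95, 3.05, 3.86 and 3.82 CPM. In WT, IL4 libraries read 2.44, 2.32, 3.50 and 3.43 CPM and WT vehicle libraries 3.46, 3.79, 2.75 and 2.94 CPM. The groups separated in KO only: all KO IL4 libraries exceeded all others, while IL4 and vehicle overlapped in WT. The log2 effect was 1.58 ± 0.16 in KO and -0.19 ± 0.19 in WT, an interaction of 1.77 ± 0.25 or 3.42-fold (adjusted p = 1.65e-05, edgeR). It was called in all 16 fits that leave out 1 library and in all 11 other settings that tested it.

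The other peak higher in KO was chr1:20847947-20848845, 28.2 kb from the TSS of Mcm3, a subunit of the replicative DNA helicase. KO IL4 libraries read 4.37, 5.23, 3.82 and 4.50 CPM and KO vehicle 1.66, 1.67, 1.07 and 1.77 CPM. With IL4, WT libraries read 2.53, 2.91, 2.88 and 3.05 CPM and WT vehicle 2.91, 2.18, 2.64 and 3.88 CPM. KO vehicle libraries were the lowest of the 4 groups and KO IL4 libraries nearly all the highest, since 1 WT vehicle library, at 3.88, lay above the lowest KO IL4 library. The interaction was 1.55 ± 0.29 (adjusted p = 0.0228). The call was lost in 10 of 16 fits that leave out 1 library (KO IL4 replicates 2 and 4, KO vehicle 1, 2 and 3, WT IL4 1, 2 and 4, WT vehicle 1 and 4), with adjusted p up to 0.242 and log2 values of 1.37 to 1.63, and with DESeq2 (adjusted p = 0.199).

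The other 3 called peaks were lower in KO. Nrg4 encodes a growth factor of the EGF family that binds ErbB4. Its peak, chr9:55294966-55295299, is 11.5 kb from the TSS. KO IL4 libraries read 1.89, 1.61, 1.73 and 1.69 CPM and KO vehicle 1.53, 1.02, 1.6 and 0.653 CPM. WT IL4 libraries read 8.34, 8.37, 8.03 and 8.58 CPM and WT vehicle 2.04, 1.38, 1.32 and 1.57 CPM. All WT IL4 libraries stood far above the rest, which overlapped one another except that KO IL4 lay above KO vehicle. IL4 opened the peak by 2.36 ± 0.20 in WT (log2), and the KO value of 0.60 ± 0.27 was not called. The interaction was -1.76 ± 0.34 (adjusted p = 0.0399). The call was lost in 10 of 16 fits that leave out 1 library (KO IL4 replicates 2, 3 and 4, KO vehicle 1, 2 and 3, WT IL4 2 and 4, WT vehicle 2 and 3), with adjusted p up to 0.489 and log2 values of -1.97 to -1.61, and with DESeq2 (adjusted p = 0.0934).

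Ldlrad4 encodes a membrane protein that restrains TGF-beta signalling, and its peak, chr18:68058969-68059785, lies within the gene, 126.1 kb from the TSS. KO IL4 libraries read 12, 16.3, 15.6 and 12.7 CPM and KO vehicle 18.5, 15.3, 15 and 13.2 CPM. In WT, IL4 libraries read 17.2, 20.7, 20 and 16.3 CPM and WT vehicle 9.91, 12.4, 11.9 and 12.1 CPM. In WT the treatments were separate, with IL4 higher, and in KO they overlapped. The interaction was -0.82 ± 0.15 (adjusted p = 0.0228). At chr9:120826079-120826874, 88.8 kb from the TSS of the uncharacterised gene 1700020M21Rik, KO IL4 libraries read 33.8, 39.5, 35.1 and 39.1 CPM and KO vehicle 32.7, 29.9, 32 and 35 CPM. With IL4, WT libraries read 9.52, 8.96, 9.26 and 11 CPM and WT vehicle 5.66, 3.9, 4.4 and 5.25 CPM. Every KO library exceeded every WT library, and IL4 raised the WT level by 0.98 ± 0.13 (log2) against 0.19 ± 0.08 in KO. These log2 effects start from unlike vehicle levels, 2.72 (log2) higher in KO. In CPM the rise was of similar size, from means of 32.4 to 36.9 in KO and 4.80 to 9.68 in WT. The interaction was -0.78 ± 0.15 (adjusted p = 0.0272). Leaving out 1 library ended the Ldlrad4 call in 5 of 16 fits (KO IL4 replicate 4, KO vehicle 1 and 2, WT IL4 2, WT vehicle 1; adjusted p up to 0.15) and the 1700020M21Rik call in 6 (KO IL4 3, KO vehicle 1 and 4, WT IL4 4, WT vehicle 2 and 3; adjusted p up to 0.246). DESeq2 gave an adjusted p of 0.085 for each.

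The called peaks were not spread evenly over the genome: 3 of 5 lay on chromosome 9, which holds 5.453% of the tested peaks, and chromosome 9 also holds the largest number of peaks (482) that differ between genotypes without regard to treatment. Over the mean of IL4 and vehicle, KO and WT differed at 2.25% of all peaks. Within 1000 kb they differed at 46 of 240 neighbours of the 1700020M21Rik peak, 21 of 227 of the peak near Smad6, 15 of 188 of the Nrg4 peak, 9 of 61 of the Mcm3 peak and 5 of 159 of the Ldlrad4 peak. Among the 2814 peaks with a genotype difference, 8.635% had an unadjusted interaction p below 0.05, against 4.285% of the other 122211. The part of such segments in the called interactions was not tested. With chromosomes 1, 2, 5, 8 and 9 left out, 0 higher and 1 lower peak were called. Of the called peaks only that of Ldlrad4 lies elsewhere, so the other calls were taken out with their chromosomes and not tested.

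Below the threshold, Zfp462, a zinc finger gene, had the next smallest p among peaks higher in KO. Its peak averaged 1.86 CPM with IL4 and 0.717 with vehicle in KO, against 0.977 and 1.66 in WT, an interaction of 2.03 ± 0.45 (adjusted p = 0.127). Glis3, which encodes a Krüppel-like zinc finger factor, followed with 1.34 ± 0.32 (adjusted p = 0.555). Among peaks lower in KO the next was 4.0 kb from the TSS of Ppp2r1b, a scaffold subunit of protein phosphatase 2A. It averaged 23.8 CPM with IL4 and 22 with vehicle in KO, against 18.9 and 11.1 in WT, an interaction of -0.68 ± 0.14 (adjusted p = 0.108). This peak was called in 4 of 16 fits that leave out 1 library and in 2 of 12 other settings. The Zfp462 peak was called in 1 of 16 and 1 of 12, so the line between called and not called is not firm.

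When all peaks of a gene were summed, 3 genes were called (0.0181% of 16604), 0 higher (0%) and 3 lower (0.0181%) in KO, with 620 genes, 3.734%, at an unadjusted p below 0.05. Ppp2r1b summed to 126, 110, 119 and 106 CPM in KO IL4 libraries and 156, 144, 137 and 145 CPM in KO vehicle. In WT the sums were 86.7, 104, 90 and 91.6 CPM with IL4 and 86.2, 91.3, 84.4 and 89.6 CPM with vehicle. Every KO IL4 library lay below every KO vehicle library, whereas the WT treatments overlapped. The interaction was -0.43 ± 0.08 (adjusted p = 0.0202), and 14 of its 15 tested peaks had a negative interaction. Of the 141 neighbours of its leading peak within 1000 kb, 51 differed between genotypes.

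Insig2 encodes a membrane protein of the endoplasmic reticulum that restrains sterol synthesis. Its sums were 74.3, 74.5, 70.3 and 78.6 CPM in KO IL4 and 72.7, 70.6, 70.1 and 79.4 CPM in KO vehicle libraries. WT libraries read 112, 110, 116 and 107 CPM with IL4 and 83.2, 88.2, 83.9 and 86.1 CPM with vehicle. IL4 raised all WT libraries above their vehicle, while the KO treatments overlapped. The interaction was -0.36 ± 0.07 (adjusted p = 0.0217), with 8 of 9 tested peaks negative. Cd27, a receptor of the TNF family best known from lymphocytes, read 11.5, 11.9, 13.1 and 13.4 CPM with IL4 and 15.2, 15.4, 12.6 and 15.9 CPM with vehicle in KO, against 13.9, 16.9, 16.2 and 14.9 CPM with IL4 and 11.3, 11, 10.7 and 12.5 CPM with vehicle in WT. IL4 libraries were the higher ones in WT, and mostly the lower ones in KO. The interaction was -0.71 ± 0.14 (adjusted p = 0.0467), negative at 4 of 4 peaks, none of them called alone. Over all peaks with a gene, 47.77% were negative. Ppp2r1b, Insig2 and Cd27 were picked by the sums of these same peaks, so the shares of negative peaks are no added evidence.

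The gene calls depended on which libraries were included. Leaving out 1 library ended the Ppp2r1b call in 6 of 16 fits (KO IL4 replicate 2, KO vehicle 1 and 4, WT IL4 2, WT vehicle 1 and 3; adjusted p up to 0.0877), the Insig2 call in 8 (KO IL4 2 and 3, KO vehicle 1 and 4, WT IL4 2 and 3, WT vehicle 1 and 3; up to 0.143) and the Cd27 call in 12 (up to 0.387). For Cd27 the fits that kept it were those without KO IL4 replicate 4, KO vehicle 3, WT IL4 1 or WT vehicle 4. All 3 were lost when a gene's sum used only the peaks that the deposited table names for it (adjusted p = 0.0577 for Ppp2r1b, 0.82 for Insig2 and 0.171 for Cd27). The Cd27 call was lost in 9 of 13 settings other than leaving out a library, among them total counts alone, a mean of at least 30 counts, replicate number as a block and a fit that is not robust, with adjusted p up to 0.172. The genes with the smallest p among those higher in KO were not called (adjusted p = 0.999 each): Omp, the olfactory marker protein, at 0.85 ± 0.23, the zinc finger gene Zfp64 at 0.22 ± 0.06, the adhesion molecule Igsf11 at 0.38 ± 0.11 and the histamine receptor Hrh3 at 0.57 ± 0.18. Tex9 had -0.44 ± 0.10 (adjusted p = 0.154). The Tex9 sum was called in 2 of 16 fits that leave out 1 library and in 1 of 12 other settings.

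At the genes of the IL4 pathway IL4 changed many peaks in both genotypes, and no interaction was called, as at nearly all tested peaks. Of the 34 listed IL4 and STAT6 targets, 33 had a tested peak, 376 peaks in all. IL4 raised 159 of these in KO and 176 in WT, beside 20578 in KO and 22377 in WT of all 107775 tested peaks with a gene. It lowered 23 in KO and 40 in WT, beside 16100 in KO and 19813 in WT of all. For this list 0 peaks were called for the interaction. Over all tested peaks 0.004% were, so 0 calls among 376 peaks say little about these genes. An unadjusted p below 0.05 (edgeR) was found at 17 peaks (4.521%), beside 4.389% over all peaks with a gene. The median interaction was -0.018, beside 0.012 over all, and 75.53% of the intervals lay inside 2-fold, beside 74.89%. The receptor and signalling genes (18 of 20 with a tested peak, 215 peaks) had a median of 0.0064, and the KLF family (16 of 16 genes, 218 peaks) one of 0.019, again with 0 calls in each.

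**Figure D2:**
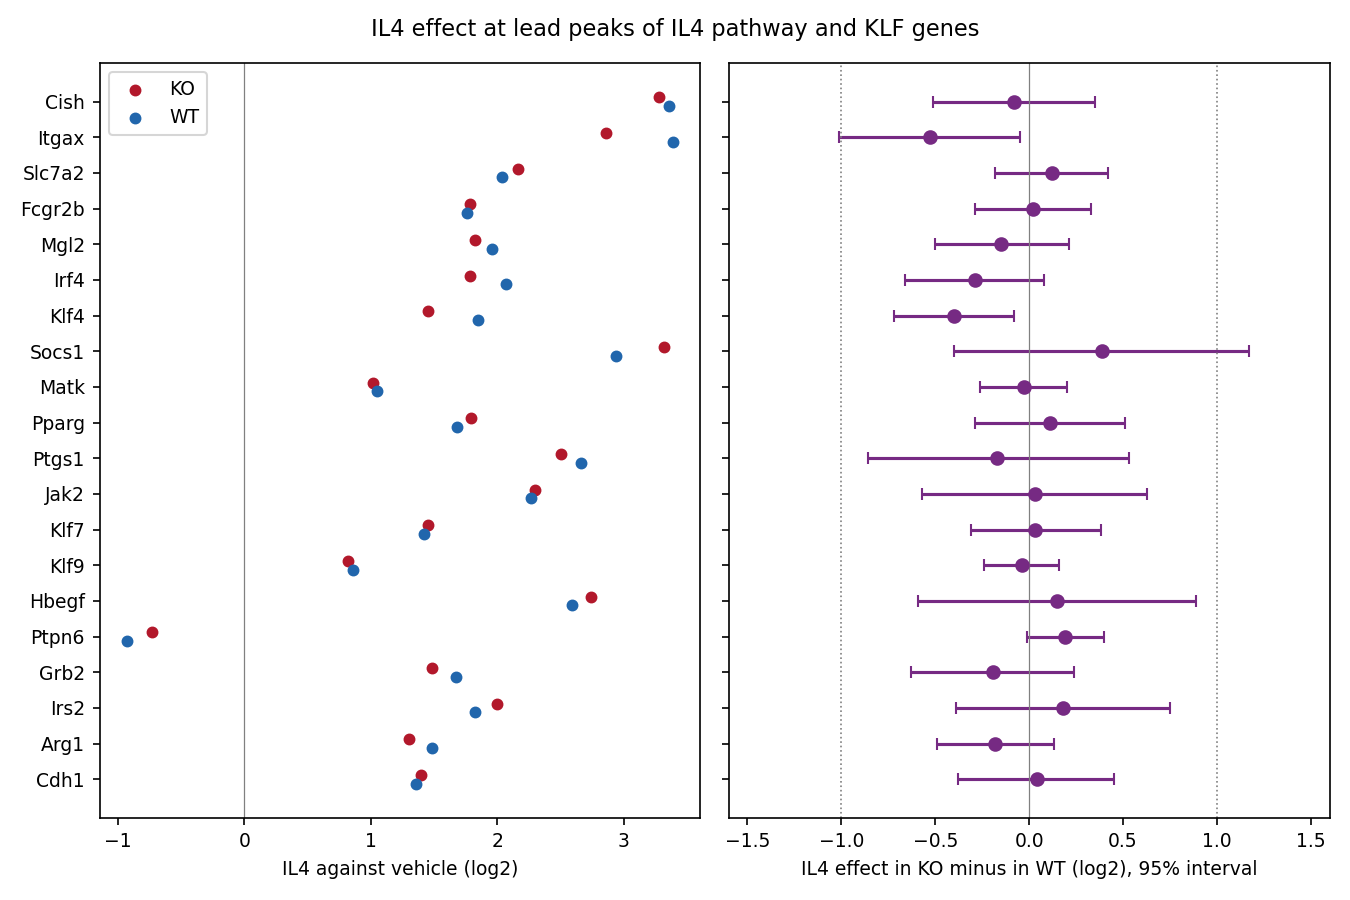
Left, log2 IL4 effect in KO and WT at the peak with the smallest p for the mean IL4 effect of each gene, for the 20 genes of the IL4 pathway and KLF lists with the smallest such p; right, the interaction with its 95% interval, dotted lines at 2-fold. KO and WT dots lie close together, and 18 of 20 intervals lie inside 2-fold.

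The feedback inhibitor Cish, a SOCS family member, had the strongest evidence of an IL4 effect among these genes. KO IL4 libraries read 22.8, 28, 30.5 and 30.7 CPM and KO vehicle 3.06, 2.03, 3.46 and 3.36 CPM. WT IL4 libraries read 27.3, 28.5, 26.3 and 24.8 CPM and WT vehicle 2.83, 2.41, 2.31 and 2.73 CPM. The genotypes overlapped under both treatments, and the interval of the interaction, -0.51 to 0.35, bounds it below 1.5-fold in either direction. At Arg1, the arginase of alternative activation, KO IL4 libraries read 24.4, 26, 33 and 27.8 CPM and KO vehicle 11.2, 11.5, 14 and 8.95 CPM. In WT, IL4 libraries read 27.6, 31.3, 29.9 and 30.1 CPM and WT vehicle 7.86, 11.2, 12.8 and 11.5 CPM. Here too the genotypes overlapped, and the interaction was -0.18 ± 0.15, between -0.49 and 0.13.

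Among the 20 intervals, 2 lay wholly below 0 and 0 wholly above, and neither interaction was called. Itgax encodes CD11c, an integrin alpha chain. KO IL4 libraries read 19.3, 23.7, 17.3 and 18.3 CPM and KO vehicle 3.44, 2.18, 3.06 and 2.52 CPM, while WT IL4 read 18.1, 23.4, 23.2 and 20.8 CPM and WT vehicle 1.65, 2.41, 1.87 and 2.31 CPM. The genotypes overlapped under each treatment, and the interaction was -0.53, between -1.01 and -0.05 (unadjusted p = 0.0300 and adjusted p = 0.999, edgeR). Klf4, whose lead peak lies 279.5 kb from the TSS, read 19.2, 24.1, 24.9 and 24.8 CPM with IL4 and 10.6, 9, 7.99 and 6.81 CPM with vehicle in KO. In WT it read 21.6, 24.9, 22.3 and 24.3 CPM with IL4 and 5.66, 7.34, 7.15 and 6.09 CPM with vehicle. The levels with IL4 overlapped, and the KO vehicle libraries were higher than most WT ones. The interaction was -0.40, between -0.72 and -0.08 (unadjusted p = 0.0146 and adjusted p = 0.999, edgeR). These values are for single peaks. Summed over all peaks of the gene, the interaction was -0.02 (-0.19 to 0.15) for Itgax and -0.04 (-0.14 to 0.06) for Klf4.

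The remaining 16 of the 20 are given here by role, with 95% intervals (log2) in brackets. Among effectors, the cationic amino acid transporter Slc7a2 had an interaction of 0.12 (-0.18 to 0.42), the inhibitory Fc receptor Fcgr2b 0.02 (-0.29 to 0.33), the lectin Mgl2 -0.15 (-0.50 to 0.21), cyclooxygenase 1 (Ptgs1) -0.17 (-0.86 to 0.53), the kinase Matk -0.03 (-0.26 to 0.20), the growth factor Hbegf 0.15 (-0.59 to 0.89) and E-cadherin (Cdh1) 0.04 (-0.38 to 0.45). Among transcription factors, Irf4 had -0.29 (-0.66 to 0.08), the nuclear receptor Pparg 0.11 (-0.29 to 0.51), Klf7 0.03 (-0.31 to 0.38) and Klf9 -0.04 (-0.24 to 0.16). In signalling, the kinase Jak2 had 0.03 (-0.57 to 0.63), the adaptors Grb2 -0.19 (-0.63 to 0.24) and Irs2 0.18 (-0.39 to 0.75), and the feedback inhibitor Socs1 0.39 (-0.40 to 1.17). Ptpn6, the phosphatase SHP-1, was the one of the 20 whose lead peak fell with IL4, with log2 effects of -0.73 in KO and -0.93 in WT, with an interaction of 0.19 (-0.01 to 0.40). Summed over all peaks of the gene, Fcgr2b had -0.18 (-0.32 to -0.04), not called (unadjusted p = 0.0118 and adjusted p = 0.999, edgeR). The sums of all other genes among the 20 had intervals that include 0.

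The peaks with the largest mean IL4 effect were likewise not called. One of the largest rises lay 326.0 kb from the TSS of Mir3961, at 8.97 CPM with IL4 and 0.672 with vehicle in KO against 10.1 and 0.270 in WT, with an interaction of -1.41 ± 0.59 (adjusted p = 0.999). The value was -0.879 without WT vehicle replicate 1, which read 0 CPM. Another lay 3.8 kb from that of Smurf1, a ubiquitin ligase of the BMP and TGF-beta pathway, at 7.60 and 0.353 CPM in KO against 7.32 and 0.259 CPM in WT, with -0.15 ± 0.62. The peaks at Dut, Tyms-ps, Tex9 and Kcnd3os had -0.38, -1.33, -0.83 and -0.76, while that at Fam46a had 0.01 and one without a gene 0.29. The largest falls lay at Gm1720, Pitpnc1, Magi3 and Gtdc1, with interactions of 0.35, -0.09, 1.23 and -0.16 and SEs of 0.62 to 1.07. Vehicle levels at the risen peaks and IL4 levels at the fallen ones were below 2 CPM, and the intervals were wide.

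Other lists gave 0 calls as well, where 0.004% of all tested peaks were called. Among coregulators (174 peaks), the lead peak of Ncoa3, a p160 family member like Ncoa2, had -0.03 ± 0.22 (adjusted p = 0.999, edgeR). Among lipid genes (214 peaks, median -0.048), 57.48% of the interactions were below 0, beside 47.77% over all peaks with a gene. An unadjusted p below 0.05 (edgeR) was found at 2.336% of them, beside 4.389%. This list leans to peaks that IL4 opened. Its median IL4 effect was 0.220 in KO and 0.250 in WT (log2), beside -0.015 and -0.023 over all peaks with a gene. The IL4 and STAT6 targets had medians of 0.309 in KO and 0.322 in WT, with 52.93% of interactions below 0. The part of the IL4 effect in the share below 0 was not tested. The lead peak of Cpt1a, which brings fatty acids into mitochondria, had -0.87 ± 0.32 (unadjusted p = 0.00701 and adjusted p = 0.999, edgeR). It read 6.72 CPM with IL4 and 1.89 with vehicle in KO against 6.70 and 1.00 in WT. The sum over all Cpt1a peaks had an interaction of 0.05 (-0.09 to 0.19). Among inflammatory genes (284 peaks; median 0.0074), Nfkbiz, an atypical NF-kB inhibitor protein, had 0.10 ± 0.10 and the NF-kB subunit gene Nfkb1 -0.35 ± 0.34. Among macrophage markers (107 peaks), the lipopolysaccharide coreceptor gene Cd14 had 0.23 ± 0.13 and Csf1r, the receptor of macrophage colony-stimulating factor, -0.23 ± 0.24, and a peak 11.7 kb from Itgam, the CD11b gene, had 0.39 ± 0.10 (unadjusted p = 1.18e-04 and adjusted p = 0.818), with 40.2 and 43.3 CPM in KO against 36.9 and 52.1 CPM in WT. Itgam was named after its values were seen. In the lists of other cell types the lead peaks of Mpo and Cxcr2 (neutrophil), Clec9a and Zbtb46 (dendritic cell), Lck and Ms4a1 (lymphocyte), Kit and Gata2 (mast cell), Itga2b (erythroid and megakaryocyte) and Thy1 and Col1a1 (fibroblast) had interactions between -1.35 at Zbtb46 and 0.50 at Thy1, and 0 were called.

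Although single peaks were rarely separable, the IL4 response summed over all peaks was somewhat smaller in KO in the main fit. Each library was placed on an IL4 response axis: its log2 CPM values were projected on the mean IL4 effect of both genotypes, scaled so that this mean effect is 1. KO IL4 libraries scored 0.435, 0.530, 0.434 and 0.467 and KO vehicle libraries -0.409, -0.528, -0.451 and -0.518. WT IL4 libraries scored 0.501, 0.526, 0.594 and 0.512 and WT vehicle libraries -0.515, -0.582, -0.527 and -0.470. The weights of the axis come from IL4 minus vehicle in these same libraries, so the distance between treatments was built in and is no result. The genotypes overlapped within each treatment. The IL4 response was 0.943 ± 0.034 in KO and 1.06 ± 0.034 in WT (± SE), a difference of -0.114 ± 0.048 with a 95% interval of -0.218 to -0.0104 from a linear model on 12 residual degrees of freedom. Expressed as a share, the KO response was 89.2% of the WT response, between 80.34% and 98.97%. A KO response equal to that of WT lies just outside this interval. With replicate number as a block the interval of the difference included 0 (-0.235 to 0.00705), as it did with a replicate block within genotype (-0.259 to 0.031).

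**Figure D3:**
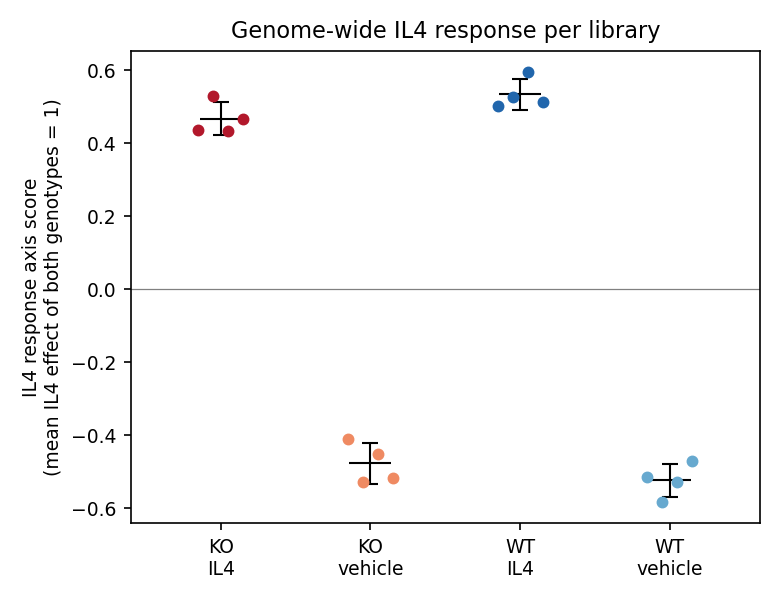
IL4 response axis score of each library (mean IL4 effect of both genotypes = 1), dots for libraries, bars for the mean and SD of 4. KO IL4 libraries lie between 0.434 and 0.530 and WT IL4 libraries between 0.501 and 0.594, so they overlap.

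The upper bound of the main fit sits close to 0. The interval reached above 0 in 5 of the 16 fits that leave out 1 library: without KO IL4 replicate 1 the value was -0.0965, without replicate 3 it was -0.0962 and without replicate 4 it was -0.108, and without KO vehicle replicate 1 or 3 it was -0.0765 or -0.0919. Offsets fitted by loess along peak abundance gave -0.116 (-0.234 to 0.00194). The spread of log2 CPM over peaks, after thinning all libraries to 7552327 counts, moved with genotype: 1.487 to 1.549 in KO IL4 libraries against 1.541 to 1.571 in WT IL4, and 1.573 to 1.647 in KO vehicle against 1.62 to 1.671 in WT vehicle. Its part in the smaller KO response was not tested. After the same thinning the axis difference was -0.111 (-0.221 to -0.00141). A like axis for dexamethasone, which uses the same vehicle libraries, put the KO response at 88.56% of WT (72.73% to 107.6%), beside 88.71% (79.67% to 98.7%) for IL4 with all 24 libraries scaled together. Fewer responding cells and a smaller response per cell cannot be told apart in bulk libraries.

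Grouped by the mean IL4 effect, peaks that IL4 opened had negative median interactions and peaks that it closed had positive ones. The median interaction was 0.135 over the 1242 peaks with a mean log2 effect below -1, 0.084 between -1 and -0.5, 0.023 between -0.5 and 0.5, -0.043 between 0.5 and 1, -0.116 between 1 and 2, and -0.250 over the 1491 peaks at 2 and over. Thus the KO effect was the smaller one among the most opened peaks, with medians of 2.21 in KO and 2.47 in WT, and among the most closed ones, with -1.17 in KO and -1.31 in WT. The group intervals that follow use no replicate block, with which the interval of the axis difference included 0. These groups hold the same peaks and libraries as the axis and are no separate evidence. Over libraries, the mean interaction of the most opened group was -0.274 with a 95% interval of -0.487 to -0.0608. The intervals of the other 2 opened groups included 0, with means of -0.139 (-0.28 to 0.00107) between 1 and 2 and -0.0594 (-0.137 to 0.0179) between 0.5 and 1. That of the most closed group was 0.121, with an interval of -0.189 to 0.43 that includes 0, and that of the group between -1 and -0.5 was 0.0874 (0.00848 to 0.166). Leaving out 1 library moved these medians by over 1.5 times without changing their sign. Without KO vehicle replicate 1 they were -0.153 in the most opened group, -0.069 between 1 and 2 and -0.014 between 0.5 and 1. Among closed peaks the median was 0.0614 below -1 without WT vehicle replicate 1, and 0.0484 between -1 and -0.5 without KO IL4 replicate 1. Between -0.5 and 0.5 the lowest was 0.00191, without KO IL4 replicate 4. Single peaks were called in the groups between -0.5 and 2. These were 1 lower between -0.5 and 0.5, 2 higher and 1 lower between 0.5 and 1, and 1 lower between 1 and 2. At a share of 0.004% over all tested peaks, the 0 calls in the most opened group say little. An unadjusted p below 0.05 (edgeR) was found at 10.6% of that group, beside 4.383% of all tested peaks. Only 31.12% of its single-peak intervals lay inside 2-fold, beside 70.25% over all.

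**Figure D4:**
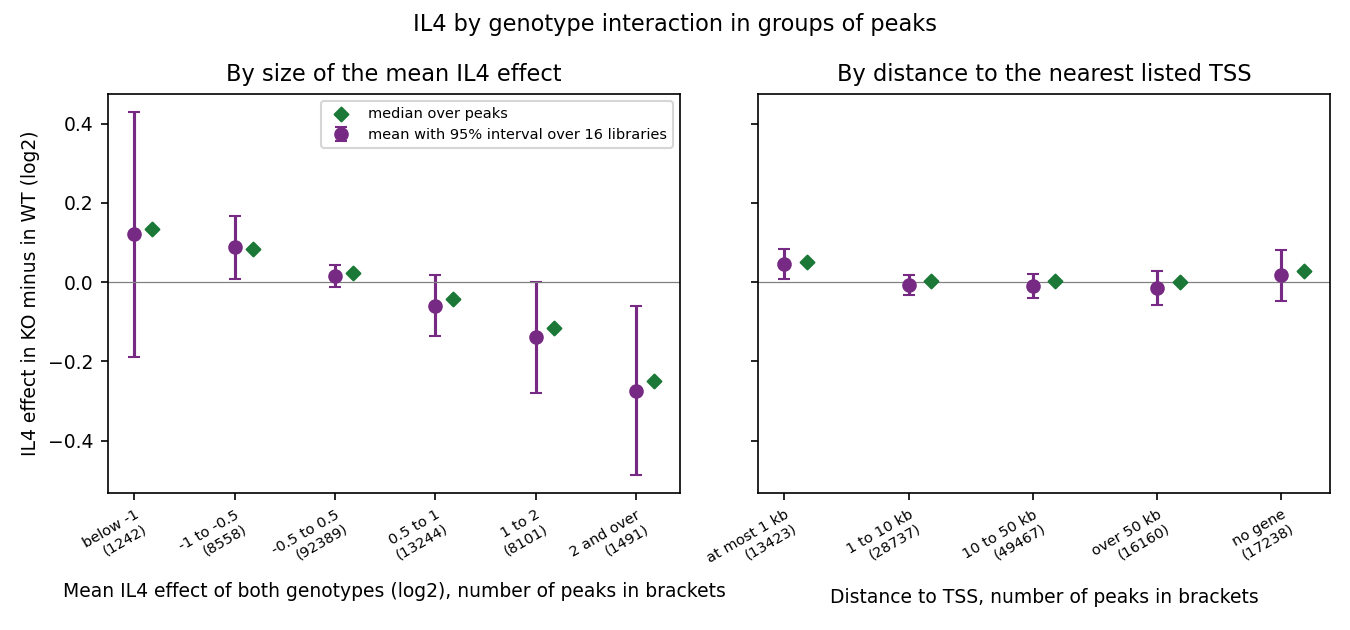
Interaction (log2, KO minus WT) in groups of peaks by mean IL4 effect (left) and by distance to the TSS (right): circles are means over peaks with 95% intervals over the 16 libraries, diamonds are medians over peaks. On the left the values go down from 0.121 to -0.274 as the IL4 effect goes up. On the right only peaks within 1 kb have an interval, 0.0078 to 0.0845, that leaves out 0. The intervals use no replicate block.

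By distance to the TSS the medians differed less. Peaks within 1 kb of a TSS (13423) had a median interaction of 0.051, and a mean over libraries of 0.0462 (0.0078 to 0.0845); the median IL4 effect there was -0.166 in KO and -0.219 in WT (log2). The medians were 0.0037 at 1 to 10 kb, 0.0015 at 10 to 50 kb and 0.029 for peaks without a gene; beyond 50 kb it was -0.000068. The intervals of all 4 of these groups included 0. No replicate block was used for the interval of any distance group, that within 1 kb included. Under the other scalings, filters and fits the median ran between 0.00801 and 0.0529 within 1 kb and between -0.029 and 0.0075 at 1 to 10 kb. Without peaks within 1 kb of a TSS, the axis difference was -0.112 (-0.216 to -0.00852).

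How large an interaction the data bound follows from the intervals. They bound the difference between the genotypes as labelled. The share of recombined cells is not given, so they are no bound on the effect of complete GRIP1 loss. Over all tested peaks the 95% interval of the interaction had a median width of ± 0.557 (log2), or 1.47-fold to either side. It lay inside 1.5-fold at 34.13% of peaks, inside 2-fold at 70.25%, inside 3-fold at 94.39% and inside 4-fold at 98.61%. An estimate beyond 2-fold was seen at 1426 peaks, and an interval wholly beyond 2-fold at 5. With paired one-sided tests adjusted over all peaks, an interaction of 2-fold or more was rejected at 94003 peaks (75.19%) and of 1.5-fold or more at 36531 (29.22%). Each single interval is a 95% interval without adjustment.

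**Figure D5:**
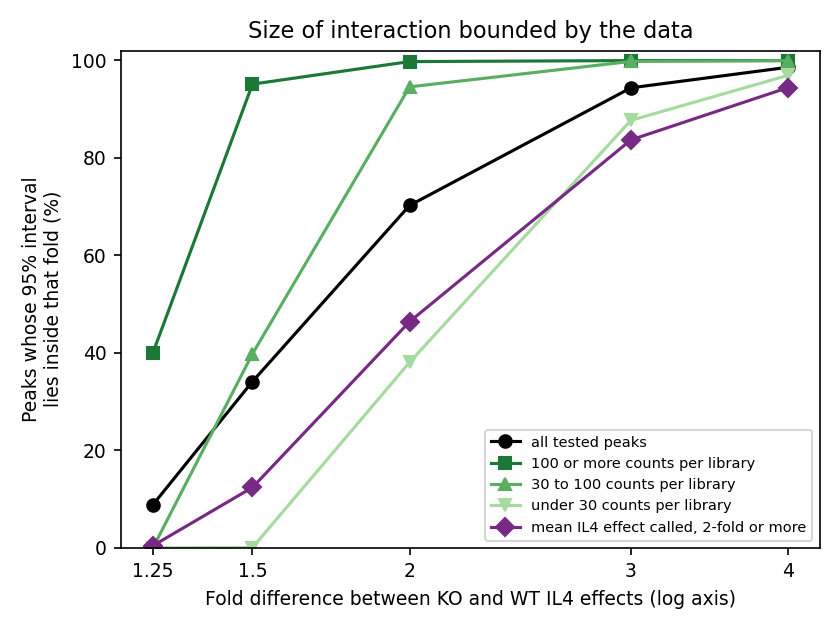
Share of peaks (%) whose 95% interval of the interaction lies inside a given fold (log axis), for all tested peaks, for 3 depth classes and for peaks with a called mean IL4 effect of 2-fold or more. Deep peaks reach 95.15% at 1.5-fold, whereas shallow ones reach 38.07% at 2-fold.

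The bound differed with depth. Among the 27663 peaks with 100 or more counts per library, 95.15% had an interval inside 1.5-fold and 99.78% inside 2-fold. Among the 40984 peaks with 30 to 100 counts, 39.82% and 94.59% did, and among the 56378 with fewer than 30 counts, 0.0532% and 38.07%. Of the 60431 peaks with a called mean effect (48.3% of those tested), 10834 had one of 2-fold or more, and of these 46.4% had an interval inside 2-fold and 83.71% inside 3-fold. Summed by gene the bound was tighter, since 89.46% of 16604 genes had an interval inside 1.5-fold and 98.34% inside 2-fold, with a median width of ± 0.187 (log2).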

How the data were processed

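ATAC-seq libraries were made from bone marrow-derived macrophages, and 16 of the 24 were used (KO and WT, IL4 and vehicle, 4 each). The authors deposited read counts per peak without normalisation, with peak positions and lengths, and a table of the authors' log2 fold changes, p-values and scores such as the signed distance to the TSS. Per the submitters' processing notes, the build was mm10 and the tools included Bowtie2, MACS2, featureCounts, fastp, SAMtools and edgeR; the notes as used here give no roles. Duplicate handling and cut-site shifting were steps not given in the sources used here.

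Deposited counts were tested with edgeR 4.0.16 under R 4.3.3: filterByExpr (19386 peaks removed), TMM factors (0.9525 to 1.033), 1 mean per group, robust quasi-likelihood fit, F test, Benjamini-Hochberg adjustment, calls at adjusted p below 0.05. SEs come from the model's information matrix and the posterior quasi-likelihood dispersion, and intervals are 95%. CPM are TMM-scaled; the axis uses log2 CPM with a prior count of 2, without a p-value. Peaks missing from the authors' table took the nearest TSS listed there within 50 kb unless a protein-coding gene absent from that table ended nearer (47523 peaks; 24959 have no gene). Assignment by distance is not evidence of regulation. Peaks named are the 8 smallest interaction p-values per direction among those called (at least 4, called or not), the 8 largest mean IL4 rises, the 4 largest falls, the lead peak of 20 IL4 pathway and KLF genes and the Ncoa2 peaks; genes named are 4 per direction, and 2 per other list, of which some are not reported here. Intervals and p-values cover the spread between libraries. The fits were tested on simulated data. Members, lists and settings were chosen with earlier results of these data known. DESeq2 1.42.0, other scalings, filters and blocks, and leaving out each library were alternatives. Libraries of dexamethasone were not used in the main fit.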

Additional observations from a re-analysis of the deposited data

Results flagged for a closer look

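The IL4 effect differed between the genotypes, by the test of the interaction itself (edgeR, adjusted p below 0.05), at 5 peaks and 3 gene sums. The log2 differences, KO minus WT, were 1.77 for the peak near Smad6, 1.55 for the Mcm3 peak, -0.82 for Ldlrad4, -0.78 for 1700020M21Rik and -1.76 for Nrg4, and for the sums -0.43 for Ppp2r1b, -0.36 for Insig2 and -0.71 for Cd27.

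A single library stood apart from the other 3 of its group in 5 of the 68 groups examined, where chance gives about 1 in 20. The peak near Smad6 had 1 KO vehicle library at 3.05 CPM, with the others between 3.82 and 3.95. The Mcm3 peak had 1 KO vehicle library at 1.07 CPM, with the others between 1.66 and 1.77. The Glis3 peak had 1 KO IL4 library at 2.25 CPM, with the others between 2.82 and 2.88. For gene sums, Zfp64 had 1 KO IL4 library at 82 CPM, with the others between 87.6 and 88.7, and Hrh3 had 1 KO vehicle library at 9.46 CPM, with the others between 7.33 and 7.63.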

How the results depend on the processing

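Counts of called peaks moved easily. Of the 2 peaks higher in KO, 1 was called with all 24 libraries, with only the peaks marked true in the authors' table, after thinning to the smallest total and with DESeq2, and 0 without chromosomes 1, 2, 5, 8 and 9. Of those lower in KO (3), 1 was called without the robust fit and without these chromosomes, and 0 after thinning and with DESeq2. For genes lower in KO (3), loess offsets called 1, and leaving out these chromosomes, the peaks marked true alone, the authors' gene names alone and thinning called 0. Some of these losses were fixed in advance. The chromosomes left out hold all called peaks but that of Ldlrad4, and the genes Ppp2r1b and Insig2. The peak near Smad6 is not marked true. Leaving out 1 library gave 1 to 3 peaks higher, 0 to 6 peaks lower and 0 to 4 genes lower. No called interaction changed direction, while small values that were not called did, such as the Cish, Smurf1, Fcgr2b and Fam46a peaks and the medians of all distance groups beyond 1 kb and of the group without a gene. The labels do not say that replicate numbers pair the libraries, and the main fit did not use them. Same-numbered libraries of a genotype correlated at 0.046 to 0.15, over 0.1 in 2 of 8 pairs. Those with other numbers correlated at -0.09 to 0.034. In the other treatment of their genotype, 16 of 16 libraries matched their own number best, a hint of pairing from the data and not from the design. With the replicate block within genotype, 6 peaks were higher and 7 lower, and the axis interval was -0.259 to 0.031; with the number as a block it was -0.235 to 0.00705. The axis difference kept its sign in all settings, at -0.151 to -0.0765 when 1 library was left out and -0.139 to -0.0998 otherwise. Its interval also reached above 0 with a mean of at least 30 counts (-0.203 to 0.0032) and with peaks of a mean effect below 0 alone (-0.28 to 0.00198). The share of peaks with an interval inside 2-fold was 64.9% to 66.6% when 1 library was left out. Over the other settings it was 60.9% to 96.5%, but some of these, such as a mean of at least 30 counts, test another set of peaks. In the main fit it was 94.59% at 30 to 100 counts and 99.78% at 100 or more, beside 70.25% of all peaks. The cause of these changes was not tested. Thinning, the smaller prior count and the axes over subsets of peaks were chosen after seeing the data. Shallow peaks limit what can be bounded.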
